A study of Mus musculus with 4 samples.

Results

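The killer-cell lectin-like receptors of the Klr family are cell-surface receptors best known from natural killer (NK) cells, and 10 of them were followed here through the cells of tumour-draining lymph nodes: Klrd1, Klrk1, Klrc1, Klrc2, Klre1, Klra4, Klra7, Klra8, Klrb1c and Klrg1. They were taken by gene symbol from the 31053 genes of the count matrix, and all 10 were found. The nodes were inguinal nodes of C57BL/6J mice that carried B16F10, a transplantable melanoma, on both thighs. The Treated group (2 mice) had indoximod, which blocks the IDO pathway, in the drinking water (2 mg/ml, begun on day 9), and received 350 ug of the BTK inhibitor ibrutinib intraperitoneally each day and 150 mg/kg of the alkylating agent cyclophosphamide on day 10. The Control group (2 mice) bore the same tumours and was left untreated. Nodes were taken 48 hours after the cyclophosphamide. The cell barcodes carry a library number from 1 to 4 that is not tied to a mouse or a group in the files, so Treated against Control is not analysed here. The receptors are compared between cell classes within each library and, for many levels and ratios, summed over the libraries.

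Klr receptors are type II membrane proteins with a C-type lectin-like domain, and most bind major histocompatibility complex (MHC) class I molecules or proteins related to them. Inhibitory members carry a tyrosine motif in the cytoplasmic tail that recruits phosphatases, whereas activating members lack it and many signal through the adaptors DAP12 (Tyrobp) or DAP10 (Hcst). A lymph node holds few NK cells among many T and B cells, and memory CD8 T cells and some gamma-delta T cells are known to carry several of these receptors as well.

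All 10 genes lie on chromosome 6 (mm10, GENCODE vM21 coordinates), 9 of them inside the NK gene complex between 128778485 and 130233322, a stretch of 1.45 Mb that holds 21 genes named Klr. From one end these are Klrb1c (128778485 to 128789215), Klre1 (129577905 to 129585827), Klrd1 (129591782 to 129598775), Klrk1 (129610323 to 129623864), Klrc2 (129647496 to 129660689), Klrc1 (129666015 to 129678973), Klra4 (130043731 to 130067271), Klra8 (130115226 to 130129898) and Klra7 (130218605 to 130233322). Klrg1 (122270596 to 122282882) stands alone, 6.50 Mb from this stretch. Klre1, Klrd1, Klrk1, Klrc2 and Klrc1 share 101 kb, while the 3 Klra genes share 189.6 kb.

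The 3 Klra genes encode Ly49 receptors that arose by gene duplication, and some of their promoters are alike in sequence. The 250 bases before the RefSeq start site (GRCm38.p6, all on the minus strand) are chr6:130067272-130067521 for Klra4, chr6:130129899-130130148 for Klra8 and chr6:130233323-130233572 for Klra7 (its second listed start). They are printed because Klra4 and Klra8 were the members most alike in level over the cell classes. Klra7 had the largest ratio between CD8 T cells with and without the chemokine gene Ccl5, as described further on. Capitals in the lower pair of sequences mark bases that differ from Klra4, or have no counterpart in it, in a pairwise alignment; bases missing against Klra4 are not shown.
Klra4: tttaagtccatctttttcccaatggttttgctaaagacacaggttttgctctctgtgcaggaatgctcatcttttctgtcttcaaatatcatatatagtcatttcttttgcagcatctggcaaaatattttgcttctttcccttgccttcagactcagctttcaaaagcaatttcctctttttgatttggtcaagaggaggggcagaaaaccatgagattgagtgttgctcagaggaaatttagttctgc
Klra8: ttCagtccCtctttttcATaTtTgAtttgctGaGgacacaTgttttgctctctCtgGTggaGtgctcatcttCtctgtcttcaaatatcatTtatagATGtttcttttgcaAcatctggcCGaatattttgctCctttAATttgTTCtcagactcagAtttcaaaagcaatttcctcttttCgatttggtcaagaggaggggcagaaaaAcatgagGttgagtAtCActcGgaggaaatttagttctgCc
Klra7: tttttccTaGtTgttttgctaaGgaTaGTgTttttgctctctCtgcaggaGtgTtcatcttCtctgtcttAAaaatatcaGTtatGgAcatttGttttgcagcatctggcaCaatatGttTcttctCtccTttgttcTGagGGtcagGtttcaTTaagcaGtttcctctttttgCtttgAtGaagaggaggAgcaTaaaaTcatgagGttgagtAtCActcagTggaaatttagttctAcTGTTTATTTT
The identity to Klra4 was 84.46% for Klra8 and 74.24% for Klra7. The same Klra7 and Klra8 windows were 75.19% identical to each other. The likeness was between these start sites: the first listed start of Klra7 was 48.63% and the second of Klra8 51.91% identical to Klra4. The 54 pairs of members' promoters in which at least 1 is not a Ly49 gene ranged from 45.95% to 54.11%.

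The windows of Klrk1 (chr6:129623865-129624114, minus strand) and Klrc1 (chr6:129678974-129679223, minus strand) are printed with the letters of a RUNX factor site in capitals. They were 50.68% identical to each other, within the range given above for pairs that are not both Ly49 genes. Whether they form a kind of promoter was not tested.
Klrk1: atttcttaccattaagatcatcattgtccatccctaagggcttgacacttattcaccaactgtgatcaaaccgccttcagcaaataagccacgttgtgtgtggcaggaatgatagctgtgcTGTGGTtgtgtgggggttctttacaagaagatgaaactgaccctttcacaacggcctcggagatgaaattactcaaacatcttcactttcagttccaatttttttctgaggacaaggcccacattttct
Klrc1: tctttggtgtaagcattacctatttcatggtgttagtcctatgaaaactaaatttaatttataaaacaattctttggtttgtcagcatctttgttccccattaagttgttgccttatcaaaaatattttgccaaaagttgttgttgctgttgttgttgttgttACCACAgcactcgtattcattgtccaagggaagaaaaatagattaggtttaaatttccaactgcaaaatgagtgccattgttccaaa
The letters TGTGGT or their reverse complement ACCACA were present in the first listed promoter of 5 of the 8 members that have one in the table (Klrk1, Klrc1, Klrc2, Klre1 and Klrb1c), and in 14.0% of 32851 mouse promoter windows of the same length. The T-box letters TCACAC or GTGTGA were in 0 of these 8 promoters, against 12.3% of all windows; the second listed start of Klre1 has 1 such match and no RUNX match. The ETS letters GGAAGT or ACTTCC were in 1 of 8 (Klrb1c), against 19.7%. Both strands were searched and no matches overlapped. A match is a run of letters and not a measured site, and the lack of a match says only that these letters are not in this window.

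The 4 libraries held 7002, 6978, 7013 and 9831 barcodes and between 39589629 and 53643414 unique molecular identifiers (UMIs, each standing for 1 captured RNA molecule). The labels give about 2000 cells per sample. Of 30824 barcodes, 26096 had at least 300 genes and at most 10% mitochondrial UMIs, with a median of 5229 to 5558 UMIs per library. Among kept cells, 61 barcode sequences occurred in 2 libraries, none of them in the NK gate. Cells were classed by UMIs of marker genes that include no Klr gene, and 7745 cells met no gate. Levels are UMIs per 1000000 UMIs of a class (CPM); 3′ counting gives molecules and not reads per length, so levels of different genes can be set side by side. Shares of cells with a UMI depend on depth, and free RNA gives such cells in every class. B-gated cells (Cd79a and Ms4a1, no Cd3; 8054 cells with a median of 3876 UMIs), which should lack most of these receptors, are therefore given as the background. Intervals are exact 95% intervals for counting error only, and reads from near-identical paralogs were assigned by the authors' counting: of the 50-base words in the last 500 bases of the transcript, 56.3% of those of Klrc1 also occur in Klrc2, 27.5% of those of Klra7 in Klra13-ps, 13.1% of those of Klra8 in other Klra genes and 4.66% of those of Klra4 in Klra1. Values of these 4 genes are uncertain to that extent, and those of Klrc2 are uncertain too, because it holds words of Klrc1.

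The NK gate (Ncr1, or at least 2 of Nkg7, Gzma, Eomes and Prf1, with no Cd3 and no Cd8b1 UMI) held 58 cells, with 11, 12, 19 and 16 in libraries 1 to 4 and a median of 5871.5 UMIs. Genes the gate did not use fitted the label: Tyrobp was read in 93.1% of NK-gated cells against 13.3% of B-gated cells, Fcer1g (the FcεRI gamma chain) in 93.1% against 1.70%, Il2rb (the beta chain that the interleukin-2 and interleukin-15 receptors share) in 89.7% against 0.720%, and Tbx21 (T-bet) in 39.7% against 0.621%. Markers of other cells were low in part. Of B cell markers, Pax5 was at 0 and Cd79b had 6 UMIs in 5 cells. The T list was at 3 of 3 markers, a summed 702 CPM (404 to 1051) against 2759 CPM in CD8-gated cells, with 5 UMIs of Trac and the constant-region genes Trbc1 and Trbc2 in 42 and 27 cells. The myeloid list was at 3 of 3 markers, a summed 325 CPM (170 to 704) against 332 CPM in B-gated cells. The 50 UMIs of Lyz2 came from 5 cells, and 44 of these UMIs from 1 cell of library 4. The part of these in the results was not tested.

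NK-gated cells carried all 10 receptors, and for 9 of the 10 the summed level was clearly the highest of the 13 classes compared. Klrg1 was at 77.7 CPM in NK-gated and 57.4 CPM in Foxp3-gated cells at full depth, but at 35.7 (4 UMIs) and 42.5 CPM after thinning each cell to 2000 UMIs, and NK-gated cells were below Foxp3-gated cells in library 4. CD94 (Klrd1) is the shared chain that pairs with an NKG2 partner. Its level in NK-gated cells was 1583, 1171, 985 and 1007 CPM in libraries 1 to 4, from 389 UMIs in 52 of 58 cells (89.7%, interval 78.8 to 96.1%). The inhibitory partner NKG2A (Klrc1), which with CD94 binds the non-classical MHC molecule Qa-1, was at 264, 17.5, 184 and 162 CPM and in 22 cells (37.9%, 25.5 to 51.6%). Library 2 stood low for Klrc1, with 1 UMI in 1 of its 12 cells. The activating partner NKG2C (Klrc2) was at 457, 455, 283 and 422 CPM and in 43 cells (74.1%, 61.0 to 84.7%). It had 131 UMIs in these cells, and Klrc1 had 57 UMIs. As given above, 56.3% of the words at the transcript end of Klrc1 also occur in Klrc2. For Klrc2, 0% of these words occur in other genes. The counts of these partners are thus not on an equal footing. Whether Klrc2 RNA exceeded Klrc1 RNA was not tested.

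NKG2D (Klrk1), an activating receptor for stress-induced ligands of the RAE-1, H60 and MULT1 families, was at 1583, 1783, 900.0 and 1376 CPM. It was the member with the highest summed level in NK-gated cells (1283 CPM) and the most widely read, in 55 of 58 cells (94.8%, 85.6 to 98.9%). Klre1, a receptor that pairs with Klri1 or Klri2, was at 1019.9, 839, 581 and 975 CPM and in 49 cells (84.5%). NK1.1 (Klrb1c), the antigen by which NK cells of C57BL/6 mice are usually stained, was at 703, 804, 411 and 596 CPM and also in 49 cells. Library 3 gave the lowest value for Klrd1, Klrk1, Klrc2, Klre1 and Klrb1c, and it was also the library with most NK-gated cells.

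The Ly49 receptors were read in fewer cells but at high levels where present. Ly49D (Klra4), an activating receptor that uses DAP12, was at 897, 1329, 765 and 747 CPM, from 304 UMIs in 23 cells (39.7%, 27.0 to 53.4%). The inhibitory Ly49G (Klra7) was at 510.0, 332, 503 and 412 CPM and also in 23 cells. Ly49H (Klra8), the activating receptor that recognises a mouse cytomegalovirus protein, was at 264, 629, 213 and 249 CPM and in 20 cells (34.5%, 22.5 to 48.1%). Library 2 was the highest for both activating Ly49 genes and the lowest for Klra7, Klrc1 and Klrg1. KLRG1 (Klrg1), an inhibitory receptor for cadherins that marks mature NK cells, was the lowest member, at 123, 35.0, 85.0 and 65.0 CPM from 27 UMIs in 11 cells (19.0%, 9.87 to 31.4%).

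The shares were also taken at equal depth. With every cell thinned to 2000 UMIs (56 NK-gated cells), Klrk1 was read in 87.5%, Klrd1 in 85.7%, Klre1 in 73.2%, Klrb1c in 67.9%, Klrc2 in 48.2%, Klra4 and Klra7 in 33.9% each, Klra8 in 28.6%, Klrc1 in 25.0% and Klrg1 in 7.14%. Klrd1 was read in 0.714% of thinned B-gated cells. Only a part of each receptor's RNA lay in NK-gated cells. Of all UMIs in kept cells, they held 69.4% for Klra4, 51.0% for Klra8 and 38.0% for Klrb1c, but 22.5% for Klre1, 16.9% for Klrc2, 15.1% for Klrk1, 13.3% for Klra7, 11.004% for Klrc1, 6.60% for Klrg1 and 2.40% for Klrd1. Between 5.94% (Klra4) and 39.9% (Klrc2) of a receptor's UMIs were in cells of no gate.

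**Figure D1:**
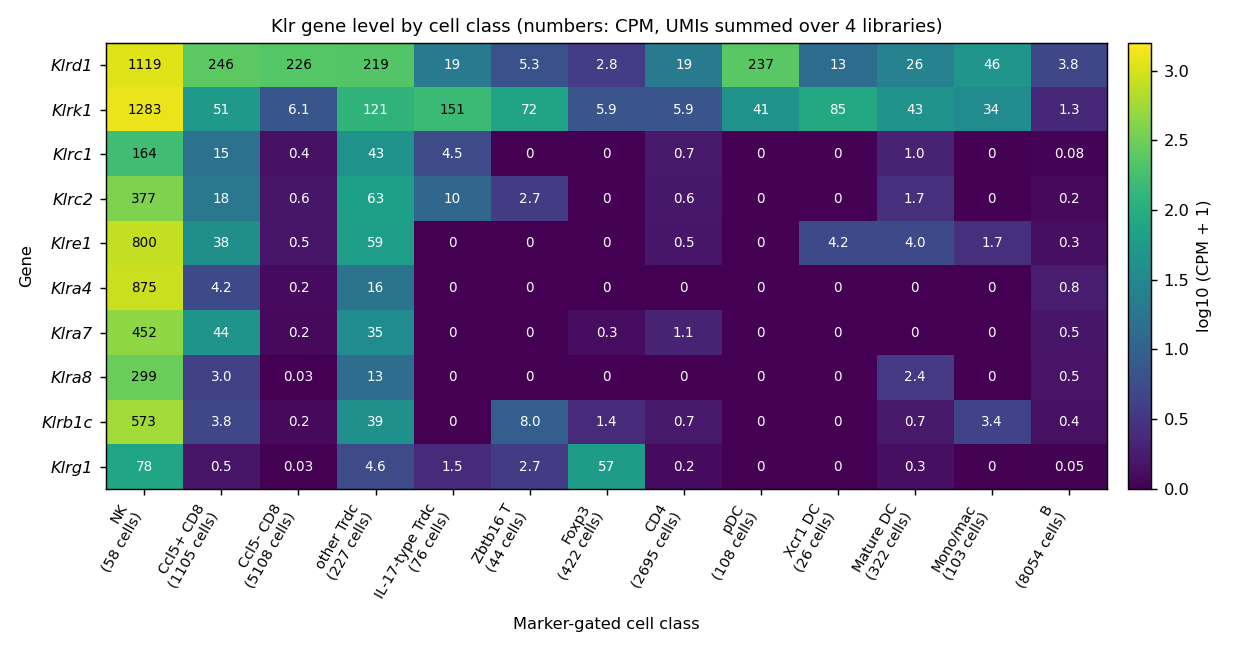
Levels of the 10 receptors (rows) in 13 gated cell classes (columns), as UMIs per 1000000 UMIs of the class (CPM) summed over the 4 libraries, on a log colour scale. NK-gated cells hold the highest level of each receptor at full depth (for Klrg1 the order with Foxp3-gated cells turns after thinning), Klrd1 is also at 246 and 226 CPM in Ccl5+ and Ccl5- CD8-gated cells, and Klrg1 stands out at 57.4 CPM in Foxp3-gated cells.

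**Figure D2:**
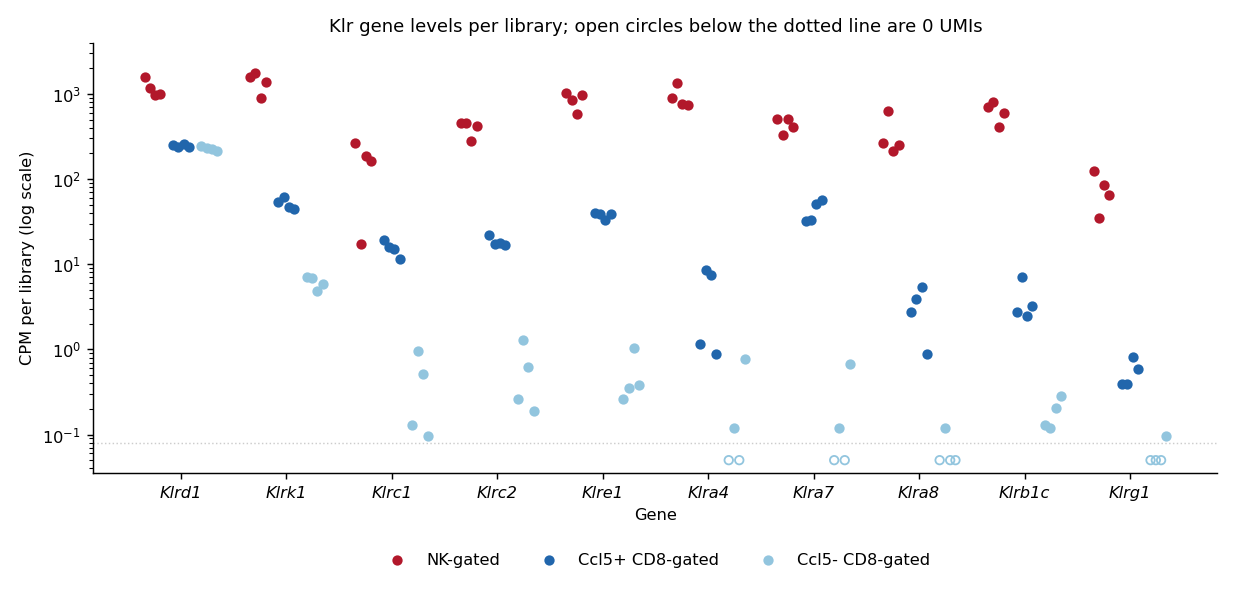
Levels of each receptor in CPM (log axis) in each of libraries 1 to 4, shown as separate points for NK-gated, Ccl5+ CD8-gated and Ccl5- CD8-gated cells; open circles mark 0 UMIs. In NK-gated cells Klrc1 has the widest spread, between 17.5 and 264 CPM, while Klrd1 runs between 985 and 1583 CPM.

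NK-gated cells were set against CD8-gated cells (Cd3 and Cd8a or Cd8b1; 6213 cells with a median of 7060 UMIs) to ask which receptors separate the main killer lymphocytes of the node. A gene was called when it differed at least 1.5-fold the same way in every library with at least 10 UMIs of it over both classes, with 3 or more such libraries. This is a rule of size and not a significance test. Of the 9 receptors with enough UMIs, 9 were called higher in NK-gated cells, where 6.23% of 10758 genes were called higher and 13.4% lower. Klrg1 had too few UMIs for the rule, 27 in NK-gated and 7 in CD8-gated cells, at a log2 ratio of 9.04 (interval 7.80 to 10.48). The median log2 ratio was 6.33 over the 9 receptors and 0.58 over all genes, so CPM ratios in this comparison carry a general shift. Size factors from the median of gene ratios lower the log2 ratios by a median of 0.47 over the 4 libraries. With these size factors the genes called in the whole table were 376 higher and 1709 lower, in place of 670 and 1441. The 9 receptors were called under both.

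The receptors differed widely in ratio. Among the 9, the activating Ly49 genes and NK1.1 stood furthest apart, with overlapping intervals in part: Klra4 at 875 CPM in NK-gated and 1.16 CPM in CD8-gated cells (log2 ratio 9.56, interval 9.14 to 10.00), Klrb1c at 573 and 1.03 CPM (9.11, 8.66 to 9.59) and Klra8 at 299 and 0.718 CPM (8.70, 8.13 to 9.31). Klre1 (6.45), Klrc2 (6.33) and Klrk1 (6.28) formed a middle group whose intervals overlap, and Klra7 (5.45) and Klrc1 (5.42) came next. Klrd1 differed least, at 1119 CPM in NK-gated and 231 CPM in CD8-gated cells (2.28, 2.13 to 2.42; 2.09 to 2.69 over libraries). Klrc1 had the widest spread over libraries, with log2 ratios between 1.98 and 5.82, and it was no longer called with a stricter cell filter (at least 500 genes, at most 5% mitochondrial UMIs).

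The extremes of the order were the same for the CD8 cells that express the chemokine Ccl5, a gene of memory and effector T cells (1105 cells, median 8895 UMIs). Against these, 8 of 9 receptors were called higher in NK-gated cells, where 6.33% of 8921 genes were; Klrc1 was not called, because library 2 had a log2 ratio of 0.13. With the other size factors the genes called in the table were 268 higher and 833 lower, in place of 565 and 573. Klra4 was 208-fold and Klra8 99.2-fold higher in NK-gated cells, whereas Klra7, which lies beside them on the chromosome, was 10.3-fold higher and Klrd1 4.55-fold.

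The molecules through which the activating receptors signal separated the same way in part. Tyrobp (DAP12) was at 3183, 3269, 2381 and 2784 CPM in NK-gated cells of the 4 libraries and at a summed 9.62 CPM in CD8-gated cells. Hcst (DAP10), the adaptor of NKG2D, was shared: its summed level was 717 CPM in NK-gated, 564 CPM in Ccl5+ CD8-gated and 462 CPM in Ccl5- CD8-gated cells, and it was not called. Of the 4 adaptor genes 2 were called higher in NK-gated cells, Tyrobp and Fcer1g (2176 and 10.5 CPM). Among 22 signalling genes, 8 of 20 with enough UMIs were called higher and 2 lower (5 and 3 with the other size factors). The kinase Syk was at 60.4 CPM in NK-gated and 1.499 CPM in CD8-gated cells and the adaptor Lat2 at 104 and 1.37 CPM, while Lat, the T cell receptor adaptor, was called lower in NK-gated cells (48.9 and 249 CPM).

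Of the other 16 Klr genes, 7 had enough UMIs and 5 were called higher in NK-gated cells. These include Klrb1a (230 CPM in NK-gated and 0.0633 CPM in CD8-gated cells), Klrb1f (314 and 1.06 CPM), Klra9 (282 and 1.245 CPM) and Klri2 (196 and 0.570 CPM), the last 1 of the 2 known partners of Klre1. Klri1, the other partner, was at 8.63 CPM in NK-gated cells. Of 14 NK transcription factors, 6 of 12 were called higher, among them Zeb2 (201 and 3.48 CPM), Irf8 (207 and 9.41 CPM), Tbx21 (77.7 and 4.35 CPM) and Id2 (1206 and 105 CPM). Of 16 other NK receptors, 8 of 13 were higher and 1 lower, and of 15 cytotoxic and effector genes, 10 of 14 were higher, such as Gzmb (granzyme B, 863 and 8.86 CPM). Ncr1, Nkg7, Gzma, Eomes and Prf1 are among the genes counted as higher in these lists, but they define the gate and are no finding.

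CD8-gated cells were then divided by Ccl5, which asks which receptors accompany a memory or effector gene. Klrk1, Klrc1, Klrc2, Klre1 and Klra7 were called higher in Ccl5+ than in Ccl5- CD8-gated cells (5108 cells, median 6810 UMIs), 5 of 7 receptors with enough UMIs, where 4.12% of 10715 genes were called higher. The median log2 ratio was 4.93 over the 7 and 0.03 over all genes. Klra7 differed most. It was at 32.6, 33.4, 50.7 and 56.1 CPM in Ccl5+ cells of libraries 1 to 4, and at 0, 0.118, 0 and 0.667 CPM in Ccl5- cells (log2 ratio 7.65, interval 6.66 to 8.87). In each library the Ccl5+ value was far above the Ccl5- value, and Ccl5+ CD8-gated cells held 40.8% of all Klra7 UMIs of kept cells, more than NK-gated cells did.

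Klre1 was at 40.4, 38.8, 33.0 and 38.6 CPM in Ccl5+ cells, against 0.259, 0.354, 1.03 and 0.381 CPM in Ccl5- cells (log2 ratio 6.18). Klrk1 was at 54.4, 61.0, 47.0 and 44.5 CPM in Ccl5+ cells, against 7.0, 6.97, 4.82 and 5.91 CPM in Ccl5- cells (3.07, 2.85 to 3.30). NKG2D is thus the member of these 5 with the most RNA in Ccl5- cells. Klrc2 (18.4 CPM in Ccl5+ and 0.576 CPM in Ccl5- cells) and Klrc1 (15.2 and 0.412 CPM) differed by 4.99 and 5.20 on the log2 scale; with cells thinned to 2000 UMIs neither had enough UMIs to be called.

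Klrd1 behaved otherwise. CD94 was at 255, 238, 257 and 238 CPM in Ccl5+ cells, against 242, 229, 226 and 213 CPM in Ccl5- cells, a 1.09-fold ratio (log2 0.12, interval 0.06 to 0.18) that was not called. It was read in 77.6% of Ccl5+ cells (75.1 to 80.1%) and 67.0% of Ccl5- cells (65.7 to 68.3%), and in 1.38% of B-gated cells; after thinning these shares were 36.5%, 34.2% and 0.714%. Ccl5- CD8-gated cells, in which Klrc1 and Klrc2 were below 1 CPM each, held 50.9% of all Klrd1 UMIs. Klra4 was not called, with log2 ratios between 0.22 and 6.18 over libraries. Klra8, Klrb1c and Klrg1 had too few UMIs for the rule, at 33 and 1, 42 and 7, and 6 and 1 UMIs in Ccl5+ and Ccl5- cells.

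Other Ly49 genes moved with Klra7. Of the other 16 Klr genes 4 had enough UMIs and 4 were called higher in Ccl5+ cells: Klra6 (20.9 CPM in Ccl5+ and 0.0274 CPM in Ccl5- cells), Klra1 (23.1 and 0.110 CPM), Klra3 (19.9 and 1.37 CPM) and Klrb1f (2.47 and 0.631 CPM). The adaptors Tyrobp (29.9 and 3.54 CPM) and Fcer1g (31.8 and 4.06 CPM) were called, 2 of 4. None of 20 signalling genes and none of 9 ligand genes was called. Of 12 transcription factors 5 were higher, including Tbx21 (14.2 and 1.40 CPM) and Eomes (64.7 and 19.95 CPM), both factors of memory CD8 cells. Of 10 other NK receptors 5 were higher, including Il2rb (154 and 41.4 CPM). Of 12 effector genes 7 were higher, including Gzmm (46.9 and 1.40 CPM). Ccl5 is counted in these 7, but it defines the division and is no finding. Myeloid markers summed to 135 CPM in Ccl5+ and 75.5 CPM in Ccl5- cells, with no overlap between the libraries; their part was not tested.

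**Figure D3:**
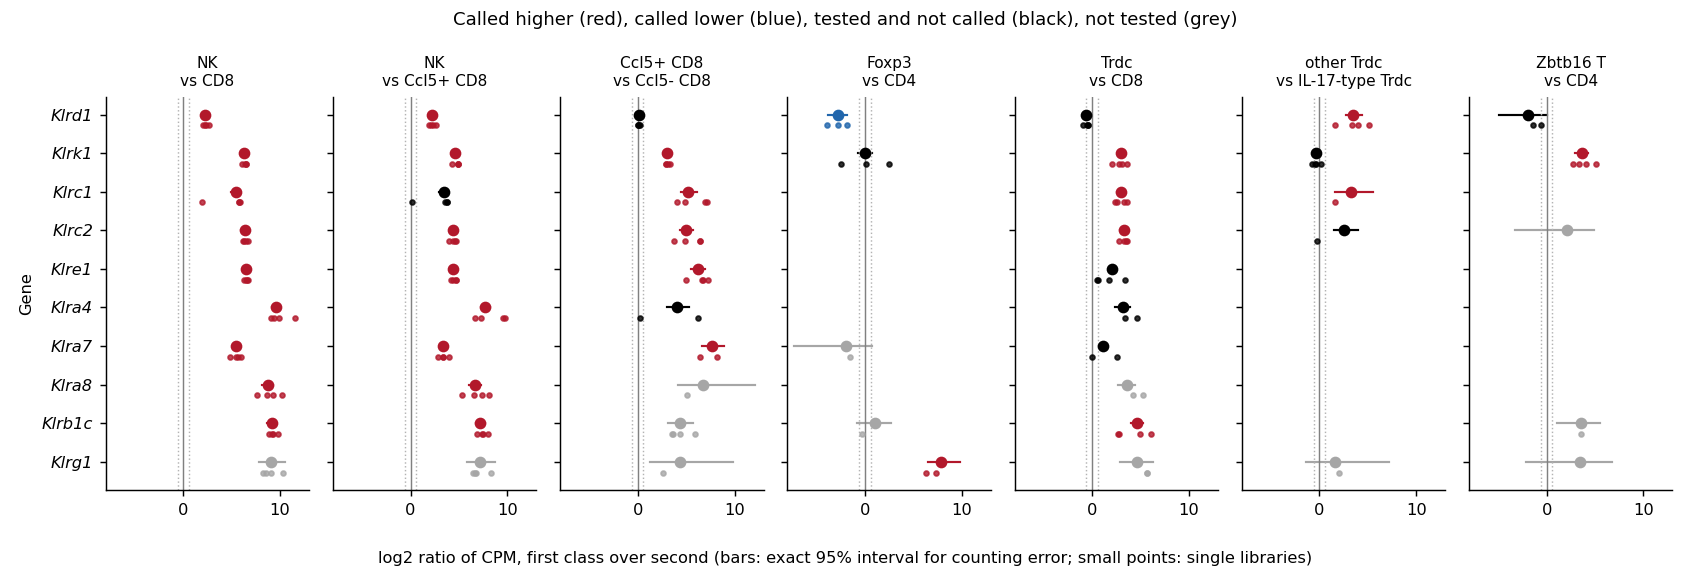
Log2 ratio of summed CPM (large points) for each receptor in the comparisons between gated classes, first-named class over second; bars are exact 95% intervals for counting error, and small points are single libraries, which exist only where a library had UMIs in both classes. Klra4, Klrb1c and Klra8 lie above 8 in NK-gated against CD8-gated cells, Klra7 lies at 7.65 in Ccl5+ against Ccl5- CD8-gated cells, and Klrd1 lies near 0 there.

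Within Ccl5+ CD8-gated cells the receptors were gathered in a minority. No member besides Klrd1 was read in 777 of 1105 cells (70.3%), while 115 (10.4%) held at least 3 of the other 9 members. Those 115 cells came as 26, 28, 27 and 34 from libraries 1 to 4. After thinning the share was 1.81%, so most cells of this kind can be seen only at full depth. Klra7 was read in 134 cells (12.1%, 10.3 to 14.2%). Klre1 was read in 59.7% of Klra7+ and 5.77% of Klra7- cells, Klrk1 in 41.0% and 13.1%, Klrc2 in 34.3% and 5.87%, and Klrd1 in 92.5% and 75.6%.

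The 115 cells with 3 or more (median 9442 UMIs) and the other 990 (median 8850.5 UMIs) also differed in genes outside the family, here named after their values were seen. Fcer1g was at 135 CPM in the 115 cells and 16.9 CPM in the others, Fasl at 31.3 and 2.82 CPM, Cd160 at 118 and 34.6 CPM, Il2rb at 301 and 133 CPM, and Ccl5 at 4837 and 1498 CPM. Cd8b1, the CD8 beta chain, was lower in the 115 cells (468 and 825 CPM, read in 76.5% and 98.0%). The NK gene Ncr1 was read in 4 of the 1105 cells. These 4 held 41.3% of the Klra4, 30.3% of the Klra8 and 23.8% of the Klrb1c UMIs of the class, but 3.53% of the Klra7 and 4.83% of the Klre1 UMIs. Without them Klra7 was at 42.7 CPM and Klra4 at 2.48 CPM, in place of 44.04 and 4.203 CPM.

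Gamma-delta T cells were gated by Trdc, with no Cd4, Cd8b1 or Foxp3 UMI but with Cd8a allowed (303 cells). Genes the gate did not use fitted the label in part. Tcrg-C1 was read in 45.2% of these cells, Tcrg-C2 in 46.2%, Tcrg-C4 in 48.2% and Sox13 in 11.6%, each below 0.1% in B-gated cells. Blk was read in 22.8% of them and in 32.2% of B-gated cells. Of the 8 receptors with enough UMIs, Klrk1, Klrc1, Klrc2 and Klrb1c were called higher than in CD8-gated cells, where 4.75% of 10818 genes were called higher (514 higher and 181 lower, against 300 and 318 with the other size factors). The log2 ratios were 2.99 for Klrk1, 2.97 for Klrc1, 3.27 for Klrc2 and 4.64 for Klrb1c, with a median of 2.99 over the 8 and 0.35 over all genes; Klrc1 and Klrb1c were not called after thinning, nor Klrc1 with the stricter cell filter. Klrd1 was at 151 CPM in Trdc-gated and 231 CPM in CD8-gated cells and was not called, but with the other size factors it was called lower (log2 ratio -0.88). Of the lists, 1 of 6 other Klr genes was called higher (Klrb1f, 24.3 and 1.06 CPM), 1 of 4 adaptors (Fcer1g, 130 and 10.5 CPM), 2 of 20 signalling genes, 4 of 12 transcription factors, 4 of 12 other NK receptors and 1 of 14 effector genes. Myeloid markers summed to 273 CPM (109 to 399 over libraries) in Trdc-gated and 89.2 CPM (81.3 to 95.1) in CD8-gated cells. Their part was not tested.

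The Trdc gate holds at least 2 kinds of cell, and they carried different receptors. The 76 cells with a UMI of a set of genes of interleukin-17-producing gamma-delta cells, among them Il17a, Il23r and Cd163l1, are called IL-17-type here (median 6080.5 UMIs), and the other 227 had none (median 5260 UMIs). Klrd1 was at 201, 201, 234 and 235 CPM in the other Trdc cells of libraries 1 to 4, against 13.1, 66.0, 6.73 and 22.7 CPM in IL-17-type cells (log2 ratio 3.50, interval 2.70 to 4.42). Klrk1 was at 119, 76.7, 169.8 and 118 CPM in the other Trdc cells, against 196, 106, 151 and 149.9 CPM in IL-17-type cells, and was not called. IL-17-type cells thus had Klrk1 RNA with less Klrd1, whose summed 19.4 CPM was above the 3.79 CPM of B-gated cells. Klrk1 was read in 55.3% of them (43.4 to 66.7%) and Klrd1 in 10.5%, while the other Trdc cells had Klrk1 in 18.5% and Klrd1 in 37.4%. B cell markers summed to 85.1 CPM (64.0 to 145 over libraries) in IL-17-type and 34.5 CPM (13.6 to 42.7) in the other Trdc cells. Their part was not tested.

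By the fold rule 2 of 4 receptors, Klrd1 and Klrc1, were called higher in other Trdc than in IL-17-type cells, where 3.13% of 4818 genes were called higher and 5.11% lower (151 higher and 246 lower, against 220 and 175 with the other size factors). Klrc1 rests on 56 and 3 UMIs, and its call was lost without library 1, 2 or 3. The Klrc1 call was also lost with the stricter cell filter and after thinning. So it was without cells that have a Trac UMI, and without cells that have an Ncr1 UMI. Klre1, Klra7, Klrb1c, Klra4 and Klra8 were at 0 in IL-17-type cells, and the other Trdc cells had 77, 45, 51, 21 and 17 UMIs of them. Taking 3 UMIs over the group as the floor, these are at least 13.2-fold, 7.70-fold, 8.73-fold, 3.59-fold and 2.91-fold higher. Library 3 held most of them: Klra7 was at 0, 0, 122 and 22.1 CPM and Klre1 at 18.3, 18.3, 156 and 49.0 CPM in the other Trdc cells of libraries 1 to 4. Of the lists, 3 of 14 signalling genes, 3 of 8 other NK receptors and 5 of 7 effector genes were called higher, such as Nkg7 (729 and 79.2 CPM) and Xcl1 (138 and 1.49 CPM), and 2 of 7 transcription factors were lower, such as Id2 (159 and 678 CPM).

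The Ly49 and NK1.1 RNA of the other Trdc cells came from few cells. Ncr1 was read in 7 of the 227 cells, and these 7 held all 21 Klra4 and all 17 Klra8 UMIs, 84.4% of the Klra7, 70.6% of the Klrb1c and 62.3% of the Klre1 UMIs, but 28.5% of the Klrk1 and 18.5% of the Klrd1 UMIs. Without them the levels were 5.70 CPM for Klra7, 12.2 CPM for Klrb1c and 23.6 CPM for Klre1, while Klrk1 was still at 92.03 CPM and Klrd1 at 189.8 CPM. Of the 24 cells with 3 or more members besides Klrd1, 6 had a UMI of Trac, the alpha chain gene, against 112 of the other 203 cells. Trac was read in 118 of the 227 cells in all. Trac, Trbc1 and Trbc2 summed to 2442 CPM in the 227 cells, 1346 CPM in IL-17-type cells and 2438 CPM in Ccl5+ CD8-gated cells. How many of the 227 are alpha-beta T cells was not tested. Without the Trdc-gated cells that have a Trac UMI, Klrk1, Klrc1, Klrc2 and Klrb1c were still called higher than in CD8-gated cells, and between the kinds of Trdc cell Klrd1 was still called while Klrc1 was not.

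Regulatory T cells were gated by Foxp3 (422 cells, median 5567 UMIs) and set against CD4-gated cells without Foxp3 (2695 cells, median 5748 UMIs). Klrg1 was called higher and Klrd1 lower in Foxp3-gated cells, 1 of 3 receptors with enough UMIs each way, where 9.73% of 9868 genes were called higher and 2.13% lower (960 and 210 genes, against 644 and 410 with the other size factors). Klrg1 was at 41.7, 32.4, 72.8 and 70.3 CPM in Foxp3-gated cells of libraries 1 to 4, against 0.508, 0, 0 and 0.442 CPM in CD4-gated cells (log2 ratio 7.89, interval 6.51 to 9.78). The 204 UMIs came from 37 cells (8.77%, 6.25 to 11.9%), and Foxp3-gated cells held 49.9% of all Klrg1 UMIs of kept cells, against 6.60% in NK-gated cells. After thinning it had too few UMIs for the rule, at a log2 ratio of 7.87. Klrd1 was at 0, 7.48, 2.91 and 0.913 CPM in Foxp3-gated cells, against 19.8, 26.4, 19.4 and 13.5 CPM in CD4-gated cells (-2.79, -3.86 to -1.89), and Klrk1 was at 5.91 and 5.88 CPM.

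The Klrg1+ Foxp3-gated cells were 6, 5, 12 and 14 cells of libraries 1 to 4, and at a median of 11345 UMIs they were deeper than the other 385 (5318 UMIs). On the CPM scale, which allows for depth, several genes differed between them, named here after their values were seen. Gzmb was at 229 CPM in Klrg1+ and 15.5 CPM in Klrg1- Foxp3-gated cells, Itgae (the CD103 integrin chain of tissue-resident T cells) at 139 and 49.7 CPM, Prdm1 (Blimp-1, a factor of effector regulatory T cells) at 93.1 and 24.2 CPM, and Nfil3 at 24.4 and 4.14 CPM. Ccl5 went the other way, with 53.4 CPM in Klrg1+ and 334 CPM in Klrg1- cells. Tyrobp had no UMI in the 37 cells and was read in 17 of the 385. Cd79b, a B cell gene, was read in 40.5% of Klrg1+ and 12.99% of Klrg1- cells; its part, and that of depth, was not tested.

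In the whole Foxp3 gate the lists gave 5 of 10 transcription factors higher than in CD4-gated cells, among them Prdm1 (36.9 and 4.12 CPM), 2 of 9 other NK receptors higher, including Il2rb (199 and 26.9 CPM), and 1 lower, and 3 of 9 effector genes higher, including Gzmb (54.9 and 1.27 CPM), and 2 lower, including Prf1 (perforin, 5.91 and 23.2 CPM). Granzyme B and perforin RNA thus went opposite ways. None of 4 adaptors was called, and with the other size factors Hcst and Cd247 were called lower. Among signalling genes 3 of 19 were higher. Ulbp1, which encodes the NKG2D ligand MULT1, was at 14.4 and 5.34 CPM, and it was 1 of 8 ligand genes called higher, a share near that of all genes, and not called with the other size factors.

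T cells with a UMI of Zbtb16, the PLZF factor of NKT and other innate-like T cells, were few (44 cells, median 6678 UMIs). Klrk1 was called higher in them than in CD4-gated cells, 1 of 2 receptors with enough UMIs, where 4.29% of 9467 genes were called higher (406 higher and 578 lower, against 250 and 735 with the other size factors). It was at 130.1, 109.8, 57.7 and 46.7 CPM in Zbtb16 T-gated cells of libraries 1 to 4, against 7.62, 3.23, 5.55 and 6.86 CPM in CD4-gated cells (log2 ratio 3.61, interval 2.94 to 4.24). It was read in 43.2% of the 44 cells. NK1.1, which is also used to stain NKT cells, had 3 UMIs in the Zbtb16 T-gated and 11 in the CD4-gated cells, too few for the rule. Klrd1, with 2 and 321 UMIs, was not called, but it was called lower with the other size factors. Myeloid markers summed to 1222 CPM (260.1 to 4831 over libraries) in Zbtb16 T-gated cells and 125 CPM in CD4-gated cells. Without the 8 cells that have a Lyz2 UMI, Klrk1 was still called, and after thinning it had too few UMIs for the rule.

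Outside T and NK cells, Klrd1 and Klrk1 stood clear of the level in B-gated cells. Klrd1 was at 243, 284, 268 and 47.1 CPM in plasmacytoid dendritic cells (Siglech+, Cd3-; 108 cells, median 4077.5 UMIs), a summed 237 CPM that lies between the 2 CD8-gated classes. It was read in 38.9% of these cells (29.7 to 48.7%), and in 36.4% of the 66 cells deep enough to be thinned. In library 4 the 15 cells had a median of 1510 UMIs, so most were too shallow to be thinned. No member was read in its few thinned cells. Libraries 1 to 3 were close and library 4 was low. Klrc1, Klrc2, Klre1, Klra4, Klra7, Klra8, Klrb1c and Klrg1 had 0 UMIs in these cells, which allows up to 3 UMIs of each, so CD94 RNA was read there without detectable RNA of either NKG2 partner. Klrk1 was at 41.3 CPM in plasmacytoid, 84.6 CPM in Xcr1+, and 42.7 CPM in mature dendritic cells (Fscn1+ Ccr7+), in 16.1% of the last, against 1.26 CPM and 0.273% in B-gated cells. In B-gated cells every member was below 4 CPM, and 3 of the 8054 cells held 39.2% of all member UMIs of that class.

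**Figure D4:**
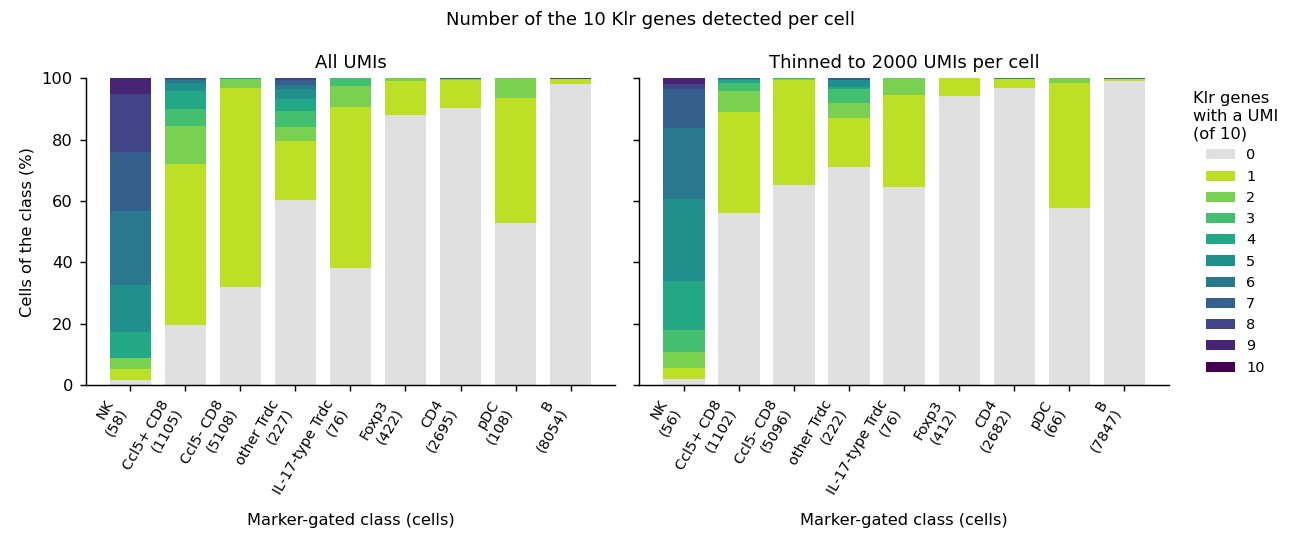
Stacked shares of cells (percent) by the number of the 10 receptors read per cell in each gated class, at full depth (left) and with each cell thinned to 2000 UMIs (right). At full depth NK-gated cells have a mean of 5.98 receptors, Ccl5+ CD8-gated cells 1.39 and B-gated cells 0.0226.

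Single NK-gated cells combined many receptors. They held a mean of 5.98 of the 10 members, with 5.91, 5.75, 6.11 and 6.06 in libraries 1 to 4, a median of 6 and a maximum of 9. At 2000 UMIs per cell the mean was 4.91, against 0.607 in Ccl5+ and 0.353 in Ccl5- CD8-gated cells. At least 3 members besides Klrd1 were read in 53 of the 58 cells. Klrk1, Klrd1, Klre1 and Klrb1c were read in 49 or more of the 58 cells, Klrc2 in 43, and the Ly49 genes, Klrc1 and Klrg1 in 23 or fewer.

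Of the 58 cells, 25 had no UMI of Klra4, Klra7 or Klra8, 10 had 1 of these genes, 13 had 2 and 10 had all 3. Klra4 alone was read in 3 cells, Klra7 alone in 5 and Klra8 alone in 2; Klra4 with Klra7 in 5, Klra4 with Klra8 in 5 and Klra7 with Klra8 in 3. Of the 20 Klra8+ cells, 15 thus also had Klra4. The cells with and without Klrc1 differed in these genes. Klra4 was read in 1 of 22 Klrc1+ cells (4.55%) and 22 of 36 Klrc1- cells (61.1%). By library this was 0 of 6, 0 of 1, 0 of 8 and 1 of 7 Klrc1+ cells, against 3 of 5, 5 of 11, 8 of 11 and 6 of 9 Klrc1- cells.

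NKG2A and Ly49D RNA were thus read together in 1 of the 22 Klrc1+ cells, a cell of library 4. Library 2 had only 1 Klrc1+ cell and shows little on this point. Klra8 was read in 2 of 22 Klrc1+ and 18 of 36 Klrc1- cells, and Klra7 in 6 of 22 and 17 of 36. The median depth was 6057 UMIs in Klrc1+ and 5684 UMIs in Klrc1- cells. After thinning, Klra4 was read in 7.14% of 14 Klrc1+ and 42.9% of 42 Klrc1- cells. These are counts of single cells and not of replicates, and they carry no test.

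**Figure D5:**
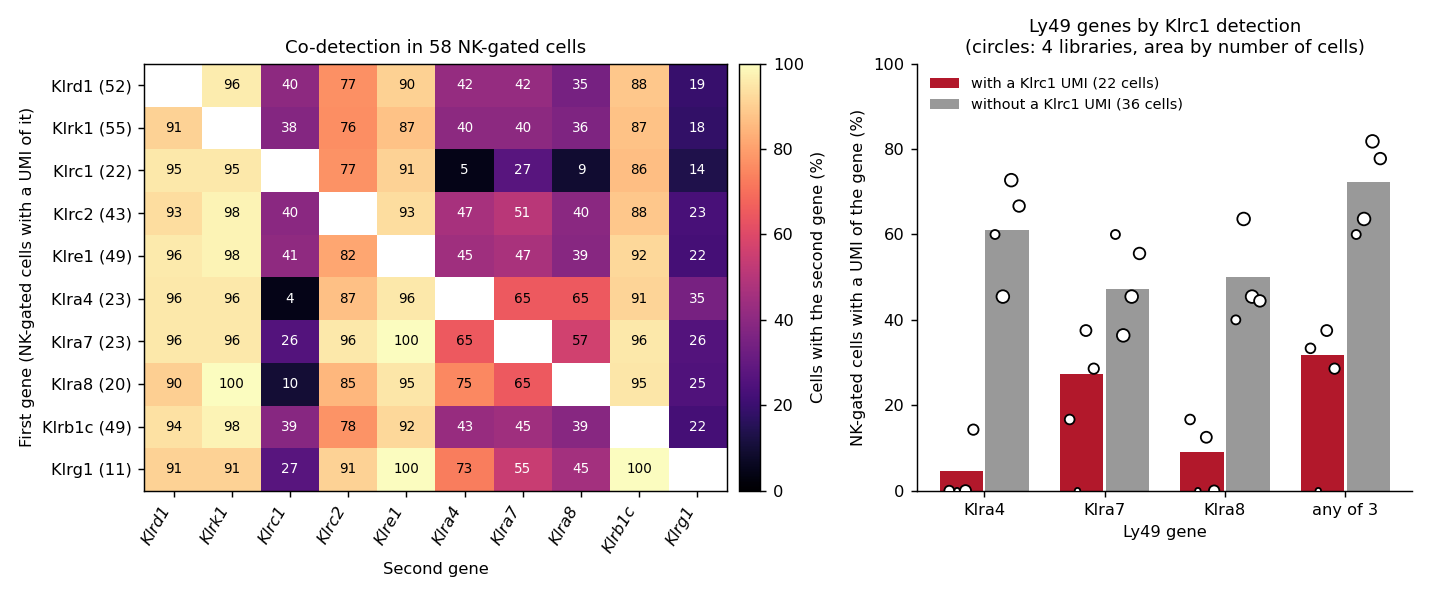
Left, percent of NK-gated cells with a UMI of the gene in the row that also had a UMI of the gene in the column; right, percent of Klrc1+ and Klrc1- NK-gated cells with a UMI of each Ly49 gene (bars: all libraries, circles: single libraries with area by number of cells). Klra4 was read in 1 of 22 Klrc1+ and 22 of 36 Klrc1- cells.

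The 33 cells with any of the 3 Ly49 genes (5, 7, 12 and 9 by library, median 5997 UMIs) and the 25 without (6, 5, 7 and 7, median 5228 UMIs) differed in further genes, named after their values were seen. Granzyme B (Gzmb) was at 1461 CPM in Ly49+ and 98.4 CPM in Ly49- cells, Prf1 at 728 and 243 CPM, Zeb2 at 267 and 118 CPM and Irf8 at 308 and 78.7 CPM. Il7r, the interleukin-7 receptor found on immature NK cells and innate lymphoid cells, was at 76.9 CPM in Ly49+ and 761 CPM in Ly49- cells, read in 4 and 15 cells. Xcl1 (256 and 787 CPM), Cd226 (25.6 and 171 CPM) and Cd160 (51.3 and 256 CPM) were also lower in Ly49+ cells, while Id2 (1143 and 1286 CPM) and Tbx21 (82.0 and 72.2 CPM) differed little. The gamma-delta chain gene Tcrg-C4 was read in 1 Ly49+ and 7 Ly49- cells and Itgae in 0 and 3; their part was not tested.

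The ligands of these receptors were read in many classes. H2-T23, which encodes the Qa-1 ligand of CD94 with NKG2A or NKG2C, was at 314 CPM in NK-gated, 626 CPM in plasmacytoid, 562 CPM in mature dendritic, 338 CPM in B-gated and 243 CPM in CD8-gated cells. The classical MHC gene H2-D1, whose product binds several inhibitory Ly49 receptors, was at 2469 CPM in NK-gated and 1273 CPM in CD8-gated cells, and H2-K1 was at 2855 and 1793 CPM. Of 17 ligand genes in the files, 9 had enough UMIs in this comparison, and 1, H2-D1, was called higher, where 6.23% of all genes were; with the other size factors its log2 ratio was 0.50 and it was not called. H60b was called lower, with 0 UMIs in NK-gated and 69 in CD8-gated cells. Cdh1 (E-cadherin), a ligand of KLRG1, was at 74.1, 74.5, 39.5 and 94.3 CPM in plasmacytoid dendritic cells of libraries 1 to 4, a summed 68.8 CPM, and was read in 21.3% of them. Its summed level was 8.63 CPM (3 UMIs) in NK-gated, 3.03 CPM in mature dendritic and 0.718 CPM in CD8-gated cells.

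Over the 13 gated classes the receptors followed a few patterns, measured as the Pearson r of log2(CPM + 10) among 11524 genes with at least 100 UMIs. The classes share libraries and depth, and r is given as a description. Among members, Klra4 with Klra8 (0.998), Klrc1 with Klrc2 (0.995) and Klre1 with Klra7 (0.990) were most alike, and Klrd1 with Klrg1 (0.241) least. Outside the family, the genes most like Klra4 were Ncr1 (0.988), Ifng (0.979) and Cma1 (0.975), and Ncr1 and Ifng also stood among the first 3 of Klra8 (0.990 and 0.977) and Klrb1c (0.989 and 0.961). Gzma came first for Klrc1 (0.992), Klrc2 (0.981) and Klre1 (0.985), and Gm33104 for Klra7 (0.992). Ncr1 and Gzma are genes of the NK gate, so their place here was set in part by the gating and is no finding. The single most alike genes were less close for Klrg1 (Hist1h2bl, 0.929), Klrk1 (Pomc, 0.874) and Klrd1 (Hoxaas3, 0.847).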

How the data were processed

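Cells of 4 lymph node samples (2 Treated and 2 Control mice) were profiled with the 10x 3′ V3 chemistry. The deposited matrix gives raw UMI counts per gene and cell barcode, made with cellranger 5.0.0 per the file headers, on mm10 per the submitters' processing notes. Whether reads were evened out between libraries is not given in the sources used here. Library numbers are not tied to mice or groups, so libraries are described one by one or summed, and no p-value is given. Before use, the rule for calls was tried on simulated counts with known changes, planted only in genes with enough counts expected in each library. Several called receptors were below that, such as Klrc1 with 3 UMIs in IL-17-type Trdc-gated cells, so the trial does not cover these calls.

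Counts were summed per gated class and library and scaled to UMIs per 1000000. Gates, in order with the first match kept, used UMIs of Cd79a, Ms4a1, Cd3d, Cd3e, Cd3g, Foxp3, Trdc, Zbtb16, Cd8a, Cd8b1, Cd4, Siglech, Xcr1, Fscn1, Ccr7, Csf1r and the NK genes named in the text; every gate other than the B gate needed no UMI of Cd79a and Ms4a1, which also removes T or NK cells doubled with B cells. Doublets called with Scrublet (scanpy 1.11.5) were removed only as an alternative. Cells were thinned to 2000 UMIs with a fixed seed, and shallower cells were left out (among them 2 NK-gated, 3 Ccl5+ CD8-gated, 207 B-gated and 42 of 108 plasmacytoid dendritic cells). Fold ratios are of summed CPM without a prior. Named genes beyond the 10 members were, per list and comparison, at most 4 called genes, taken by size of ratio (prior of 1 count), 3 adaptors and 4 ligands in every class, and the 3 genes outside the family most like each member; other genes are said in the text to be chosen after their values were seen. Of 22 ligand genes listed, 5 were not used here. Not every gene of the gates and marker lists is reported here. The members and lists were chosen with earlier results of these data known. A further 3 alternatives were chosen after seeing the data: a Trdc gate without Trac, a Zbtb16 T gate without Lyz2, and CD8 and Trdc gates without Ncr1. Promoters are RefSeq windows of GRCm38.p6; Klrd1 and Klrg1 are named only. Python 3.11.15 was used with numpy 2.4.6, scipy 1.17.1, pandas 2.3.3, biopython 1.88 and matplotlib 3.10.9.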

Additional observations from a re-analysis of the deposited data

How the results depend on the processing

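The 31 called ratios of the receptors were recomputed under 17 other settings. Of the 527 values, 512 kept the call, 15 lost it in the same direction and 0 reversed, and 23 of the 31 ratios kept it under all settings. Not every setting can change every ratio. A changed NK gate, for example, leaves the ratios between T cell classes as they were. The kept calls thus include values that could not change. Thinning every cell to 2000 UMIs gave 3 receptors called in Ccl5+ against Ccl5- CD8-gated cells in place of 5, 1 in Foxp3-gated against CD4-gated cells in place of 2, 1 in other against IL-17-type Trdc-gated cells in place of 2, and 26 list genes in NK-gated against CD8-gated cells in place of 44; it leaves fewer UMIs, so fewer genes reach the minimum. With no count minimum these 3 comparisons gave 8, 5 and 4 called, and Zbtb16 T-gated against CD4-gated cells gave 4 in place of 1. The last comparison gave 2 with the stricter cell filter and 2 with median-of-ratios size factors, and 1 to 2 when 1 library was left out, with 2 without library 2; the cause was not tested. Other against IL-17-type Trdc-gated cells gave 1 without cells that have a Trac UMI, 1 without cells that have an Ncr1 UMI, and between 1 and 3 over the leave-one-out fits (1 without library 1, 2 or 3, where Klrc1 lost its call, and 3 without library 4); the cause was not tested. The mean number of receptors per NK-gated cell was 6.30 with the stricter cell filter (43 cells), 6.15 with the gate on Ncr1 alone (53 cells) and 4.91 after thinning, in place of 5.98. The NK gate held 64 cells when 1 Cd3 UMI was allowed and 63 with no condition on Cd79a and Ms4a1, and Scrublet removed none of the 58. No paired analysis was possible because the libraries carry no label of a mouse or group, so Treated and Control mice could not be matched. The calls compare classes within each library. Summed levels and ratios, gene levels in cells split by receptor, and the r values pool all 4 libraries, so differences between libraries are not removed from them. With 58 NK-gated cells, depth limits Klrg1 (27 UMIs) and Klrc1 (57 UMIs) most.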
